A study of Mus musculus with 16 samples.

Results

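The genes described here are 37 genes of the early, endoplasmic reticulum (ER) part of protein N-glycosylation, taken as a fixed list of gene names from the 37583 genes of the deposited files. Each of the 37 names matched 1 gene. RNA was sequenced from cortex and cerebellum of C57BL/6J mice, 4 wild-type and 4 carrying the *Slc39a8* A391T (A393T) mutation, a change in the coding sequence of a metal ion transporter that gene counts do not show. Each mouse gave 1 library per region, so there were 4 libraries in each of wild-type cortex, A391T cortex, wild-type cerebellum and A391T cerebellum, 16 in all, and all mice shared the strain background. The wild-type mice were described as male and the study's mice as 12 weeks old, and age and sex of the A391T mice are not given in the sources used here. Libraries are called by the codes in their titles, CTX for cortex and CBLM for cerebellum with the number of the mouse. Values per group are given in the order CTX447, CTX448, CTX479, CTX480 for wild-type cortex and CTX445, CTX446, CTX461, CTX462 for A391T cortex, and in the same order of mice for cerebellum.

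N-glycans are built in advance, as an oligosaccharide on the lipid dolichol. Assembly starts on the cytosolic face of the ER membrane and ends in the lumen, where dolichol-phosphate mannose and dolichol-phosphate glucose serve as sugar donors. The oligosaccharyltransferase (OST) moves the finished oligosaccharide onto asparagine residues of new proteins. Glucosidases and a mannosidase then trim it, and a folding sensor and the lectin chaperones calnexin and calreticulin read the trimmed glycan. Inherited defects of many of these genes are known as congenital disorders of glycosylation, in which the brain is often affected.

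Counts on genes ran from 20813432 to 30497206 per library, and each of the 37 genes had from 117 to 13698 counts in each library, well above the 3 counts that a count of 0 allows. Levels are given as TPM, which corrects counts for the length of a gene and for the size of a library, and changes as log2 fold changes of cerebellum over cortex from edgeR's quasi-likelihood test with TMM scaling. The names of libraries differed between the count files and the deposited RPKM table for 4 mice: values of the wild-type mice of CTX447 and CTX448 stand under the names of the A391T mice of CTX461 and CTX462 in the table and the reverse, in both regions. The files do not show which names are right, so the genotype of these 4 mice rests on the titles of the count files, while the region of each library is the same in both. The A391T library CBLM445 stood apart from all others and is given with and without where a result rests on it. Markers of cortex neurons and of cerebellum neurons followed the labelled regions in all 16 libraries. Their summed TPM was 2275 to 2848 in cortex and 742.5 to 993.8 in cerebellum for 5 cortex markers, and 118.9 to 143.5 against 3222 to 3588 for 7 cerebellum markers.

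The 37 genes covered a wide range of levels. In wild-type cortex the highest levels were those of *Calr* (calreticulin) at 610.3 ± 102 TPM, *Tusc3* (an OST subunit) at 433.7 ± 32.6 TPM and *Canx* (calnexin) at 363 ± 12.3 TPM (SD, n = 4 each). The lowest were *Alg13* at 4.35 ± 0.479 TPM and *Alg6* at 4.17 ± 0.232 TPM (SD, n = 4 each), which differ by less than their spread. Within wild-type mice the spread between libraries was small, with a median coefficient of variation over the 37 genes of 6.85% in cortex and 4.86% in cerebellum. In wild-type cerebellum *Calr* at 578.4 ± 58.8 TPM and *Canx* at 372.2 ± 34.3 TPM were again the highest (SD, n = 4 each), and *Tusc3* fell to 122.6 ± 6.82 TPM (SD, n = 4).

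Between the regions of wild-type mice 19 of the 37 genes passed an adjusted p-value under 0.05, against 67.8% of the 16040 genes tested. Of these, 14 were higher in cerebellum and 5 were higher in cortex, where the background was 34.7% and 33.1%. Only *Tusc3* also reached a 2-fold change, against 24.7% of all genes tested. The genes tested as background were not matched to the 37 for level. In wild-type cortex the 37 lay at percentiles of 54 to 99.3 among genes with counts. The median absolute log2 fold change was 0.23 over the 37 genes and 0.46 over all genes tested, and the signed median was 0.11 against 0.02. Scaling matters for changes of this size: with library totals in place of TMM the median of all genes moved by 0.12 on the log2 scale and the split became 18 higher and 4 lower, and with RLE size factors it was 12 higher and 7 lower.

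**Figure D1:**
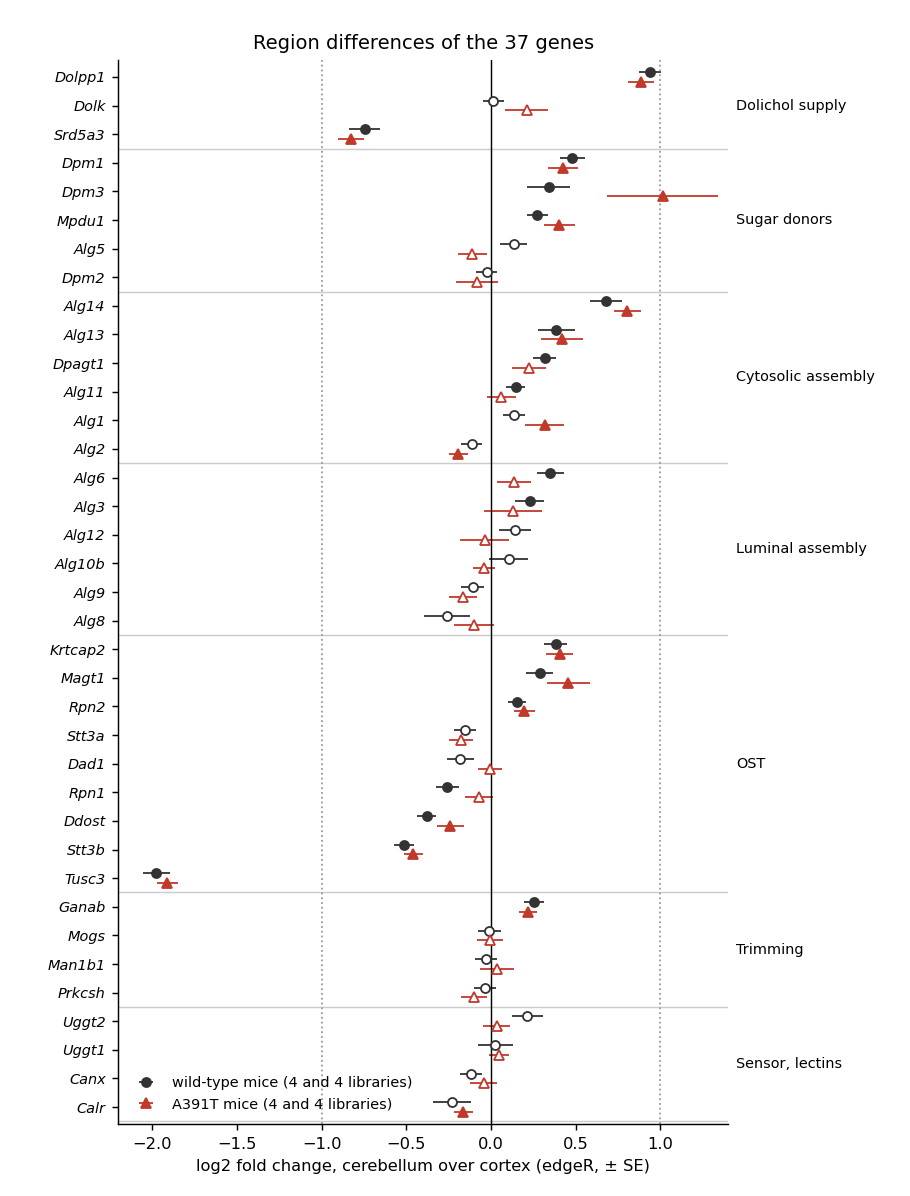
Log2 fold change of cerebellum over cortex (x axis, ± SE, edgeR) for each of the 37 genes in role groups (y axis), with circles for wild-type and triangles for A391T mice, filled where the adjusted p-value is under 0.05, and dotted lines at a 2-fold change. *Tusc3* lies far to the left in both genotypes, while the other genes lie within a 2-fold change except *Dpm3* in A391T mice.

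In A391T mice 17 of the 37 genes passed the adjusted p-value, 11 higher in cerebellum and 6 higher in cortex, against 62.8% of the 16005 genes tested. With library totals this split was 15 and 3, and that of all genes changed from 5051 higher and 5005 lower to 6507 and 4175. *Tusc3* and *Dpm3* reached a 2-fold change, against 24.7% of all genes tested. With the mouse as a block, the regions being from the same animals, the number with a 2-fold change was 1. The count of 17 rested in part on the library that stood apart: without CBLM445 it was 24, of which 1 had a 2-fold change, and the share of all genes rose as well, to 72.7%. In total, 14 genes were called in both genotypes, all with the same direction, against 56.2% of all genes tested in both. These were *Dolpp1*, *Srd5a3*, *Dpm1*, *Dpm3*, *Mpdu1*, *Alg13*, *Alg14*, *Ddost*, *Rpn2*, *Stt3b*, *Tusc3*, *Magt1*, *Krtcap2* and *Ganab*. Some calls were close to the threshold. Over 19 alternatives, all but the test against a 2-fold change, 15 of the 19 wild-type calls and 11 of the 17 A391T calls were made in at least 18. In wild-type mice *Alg11* was called in 5 of 19, *Alg3* in 6, *Dpm3* in 9 and *Rpn2* in 14. The *Dpm3* call was lost without CTX447, CTX448, CTX479, CBLM447 or CBLM448, that of *Alg3* without CTX447, CTX448, CBLM447, CBLM448 or CBLM479, that of *Alg11* without CTX447, CTX448, CTX480, CBLM448, CBLM479 or CBLM480, and that of *Rpn2* without CTX447, CBLM448 or CBLM479. In A391T mice *Calr* was called in 7 of 19, *Ddost* in 12, *Alg1* in 14, and *Alg2*, *Dpm3* and *Rpn2* in 16. The call of *Calr* was lost without CTX445, CTX462, CBLM446 or CBLM462, that of *Ddost* without CTX445, CTX462, CBLM446, CBLM461 or CBLM462, that of *Alg1* without any 1 of the 4 cortex libraries, that of *Dpm3* without CTX445, CTX446 or CTX461, and that of *Rpn2* without CTX445 or CTX446.

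Over all 16 libraries, a comparison of regions that depends little on the names of the mice, 23 of the 37 genes were called, 14 higher in cerebellum and 9 higher in cortex, against 74.3% of the 16589 genes tested. With library totals the split was 21 and 4. *Tusc3* again was the single gene with a 2-fold change, against 25.2% of all genes tested. Some cerebellum libraries carried choroid plexus, an epithelium beside the cerebellum, with a summed TPM of 5 markers from 42.89 to 8081 against 8.644 to 49.69 in cortex. With only the 2 cerebellum libraries low in these markers, CBLM462 and CBLM479, 20 of the 37 genes were called, against 63.8% of all genes, and the log2 fold change of *Tusc3* was -2.0. The regions also differed in glia, with a summed TPM of 4 astrocyte and Bergmann glia markers of 759.3 to 931.5 in cortex and 1260 to 1624 in cerebellum, and of 4 microglia markers of 356.6 to 427.8 and 107.3 to 149.5. The part of these cells in the changes was not tested, and in bulk tissue fewer cells of a type and less RNA per cell cannot be told apart.

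**Figure D2:**
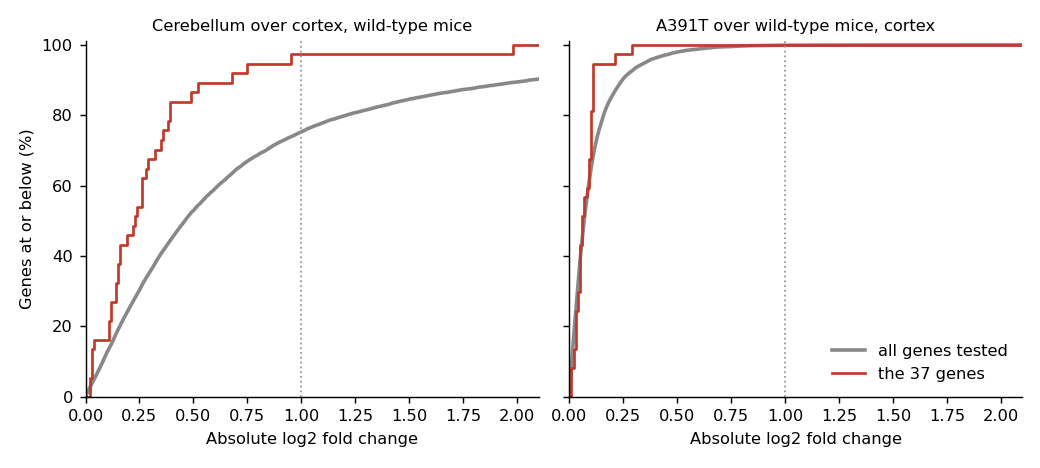
Share of genes (y axis, %) at or below each absolute log2 fold change (x axis) for the 37 genes (red steps) and all genes tested (grey), for regions in wild-type mice on the left and for genotypes in cortex on the right, with a dotted line at a 2-fold change. On the left the 37 genes reach 97.3% at a 2-fold change and all genes 75.3%. On the right the shares are 24.32% and 24.27% at an absolute log2 fold change of 0.03. They are 43.24% and 38.8% at 0.05, and 94.59% and 68.13% at 0.11. All genes tested were not matched to the 37 for level.

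The OST held the largest change. The complex exists in forms built around the catalytic subunits STT3A, which acts on proteins as they enter the ER, and STT3B, which can act later, and the STT3B form carries either TUSC3 or MAGT1 as an oxidoreductase subunit. *Tusc3* (ENSMUSG00000039530, NCBIM37 chromosome 8, 40068899 to 40250466, plus strand) was at 476.1, 420.4, 399.3 and 439.1 TPM in wild-type cortex and at 127.4, 126.5, 123.9 and 112.6 TPM in wild-type cerebellum. In A391T mice it was at 475.8, 448.6, 444.4 and 455.6 TPM in cortex and at 125.9, 134.3, 137.3 and 123.5 TPM in cerebellum. Every cortex library lay above every cerebellum library. *Tusc3* was lower in cerebellum, with a log2 fold change of -1.97 ± 0.08 (SE, adjusted p = 2.25e-09) in wild-type and -1.91 ± 0.06 (SE, adjusted p = 4.8e-09) in A391T mice. The change also passed a test against a 2-fold change in both genotypes, and no exon base of *Tusc3* is shared with another annotated gene.

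*Magt1*, the alternative oxidoreductase subunit and a gene of the X chromosome, moved the other way. It was at 12.5, 11.0, 13.2 and 13.4 TPM in wild-type cortex and at 16.96, 15.9, 16.97 and 18.2 TPM in wild-type cerebellum. Its A391T levels were 11.7, 12.0, 14.6 and 11.6 TPM in cortex and 21.3, 16.2, 18.2 and 17.4 TPM in cerebellum, with the highest value in the library that stood apart. On this scale the regions did not overlap. The log2 fold change was 0.29 ± 0.08 (SE, adjusted p = 0.00777) in wild-type and 0.46 ± 0.13 (SE, adjusted p = 0.00968) in A391T mice, and 0.34 without CBLM445.

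*Tusc3* nevertheless remained the more abundant of the pair in every library. It held 97.2% ± 0.316 of the summed TPM of *Tusc3* and *Magt1* in wild-type cortex and 87.8% ± 1.18 in wild-type cerebellum (SD, n = 4 each), with 97.3% ± 0.348 and 87.7% ± 1.57 in A391T mice (SD, n = 4 each). The log2 ratio of *Tusc3* to *Magt1* within a library was 5.11 ± 0.17 in wild-type cortex and 2.85 ± 0.15 in wild-type cerebellum (SD, n = 4 each). The difference of -2.26 had an exact two-sided permutation p = 0.029, the smallest that 4 against 4 libraries allow, and 0.057 after Benjamini-Hochberg adjustment over the 4 ratios tested. Over all 16 libraries the difference was -2.31, with an adjusted exact permutation p of 0.00031, and with the 8 mice as pairs the adjusted exact sign-flip p was 0.016.

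*Stt3b*, which works with either oxidoreductase subunit, was lower in cerebellum too, but by much less than *Tusc3*. Its levels were 100.2, 103.2, 117.4 and 104.4 TPM in wild-type cortex and 82.5, 78.2, 87.4 and 82.7 TPM in wild-type cerebellum. In A391T mice they were 97.9, 100.4, 107.0 and 100.1 TPM and 71.0, 82.2, 78.7 and 85.1 TPM, with no overlap between regions in either genotype. The log2 fold change was -0.51 ± 0.06 (SE, adjusted p = 1.35e-05) in wild-type and -0.46 ± 0.06 (SE, adjusted p = 5.68e-05) in A391T mice. The summed TPM of *Tusc3* and *Magt1* was 4.23 ± 0.562 times that of *Stt3b* in wild-type cortex and 1.69 ± 0.113 times in wild-type cerebellum (SD, n = 4 each).

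*Stt3a* had close to the same TPM in the regions, at 22.5, 25.7, 23.4 and 21.3 TPM in wild-type cortex and 22.5, 22.4, 24.8 and 23.4 TPM in wild-type cerebellum. A391T mice had 23.8, 22.7, 25.5 and 22.9 TPM in cortex and 18.8, 23.6, 24.0 and 24.0 TPM in cerebellum, so that the groups overlapped in both genotypes. Its log2 fold change of -0.15 ± 0.07 (SE, adjusted p = 0.0607) in wild-type mice did not pass, and that of -0.15 ± 0.05 (SE, adjusted p = 0.00597) over all 16 libraries did. With library totals the latter was -0.04, with an adjusted p of 0.49. The log2 ratio of *Stt3a* to *Stt3b* was -2.19 ± 0.15 in wild-type cortex and -1.83 ± 0.03 in wild-type cerebellum (SD, n = 4 each). This difference of 0.36 had an exact permutation p = 0.029 and 0.057 after adjustment, and over all 16 libraries it was 0.32, with an adjusted exact permutation p of 0.00031. *Stt3b* thus made up 82% ± 1.52 of the summed TPM of the catalytic pair in wild-type cortex and 78.1% ± 0.371 in wild-type cerebellum (SD, n = 4 each).

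**Figure D3:**
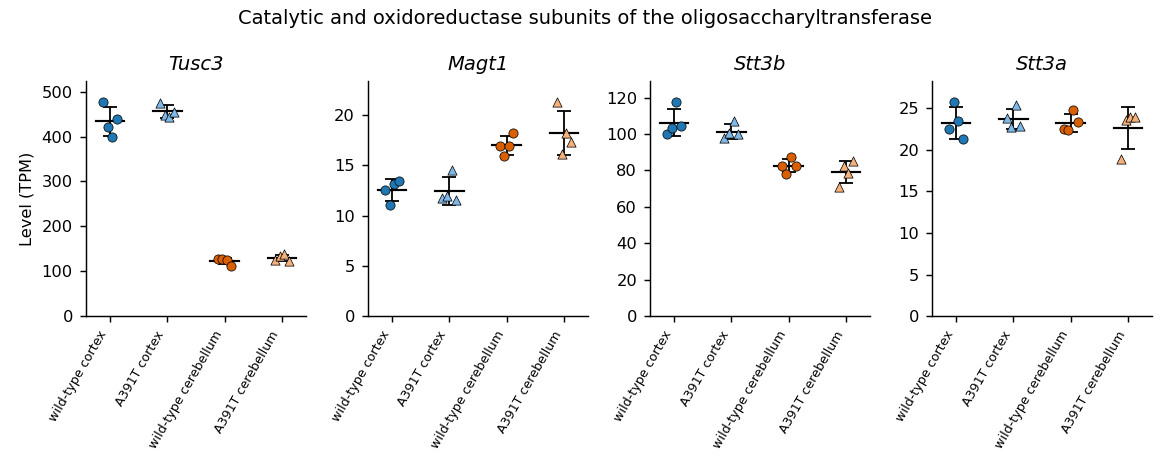
Level in TPM (y axis, from 0, own scale per panel) of the OST genes *Tusc3*, *Magt1*, *Stt3b* and *Stt3a* in each of the 16 libraries by group, with the mean (bar) and SD (whiskers, n = 4). *Tusc3* falls from 399.3 or more in cortex to 137.3 or less in cerebellum, *Magt1* rises, *Stt3b* is lower and *Stt3a* overlaps.

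The other OST subunits split in direction. Of the 9 OST genes, 7 were called in wild-type mice, 3 higher and 4 lower in cerebellum, where 67.8% of all genes were called. *Ddost* and *Rpn1*, subunits common to both forms, were lower in cerebellum, with log2 fold changes of -0.38 ± 0.06 (SE, adjusted p = 9.38e-05) and -0.26 ± 0.07 (SE, adjusted p = 0.00505). With library totals *Rpn1* was not called in wild-type mice (-0.14, adjusted p = 0.132) or over all 16 libraries (-0.0401, adjusted p = 0.55) and was 0.0597 in A391T mice (adjusted p = 0.501). *Rpn2*, a further common subunit, was higher at 0.15 ± 0.05 (SE, adjusted p = 0.0197). *Krtcap2*, a small subunit of the STT3A form, was higher at 0.38 ± 0.07 (SE, adjusted p = 0.000427), with 19% of its exon bases under *Trim46* on the other strand, which counting without strand does not separate. *Dad1*, also a common subunit, had -0.18 ± 0.08 (SE, adjusted p = 0.0628). In A391T mice *Ddost*, *Rpn2* and *Krtcap2* were called again with the same direction, and *Rpn1*, at -0.07, was not, while without CBLM445 it was called at -0.146 (adjusted p = 0.0141).

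Dolichol supply showed opposite changes at its ends. *Dolpp1*, the phosphatase that recycles the lipid carrier after transfer, was at 22.0, 21.4, 20.1 and 22.2 TPM in wild-type cortex and at 44.5, 46.8, 44.8 and 46.9 TPM in wild-type cerebellum. A391T mice had 21.4, 21.8, 22.7 and 22.5 TPM in cortex and 35.8, 48.6, 45.7 and 46.0 TPM in cerebellum. Every cerebellum library lay above every cortex library, with the lowest cerebellum value in the library that stood apart. *Dolpp1* had the highest log2 fold change of the 37 genes in wild-type mice, 0.94 ± 0.07 (SE, adjusted p = 1.93e-07), with 0.89 ± 0.08 (SE, adjusted p = 4.98e-06) in A391T mice. It stayed below a 2-fold change under TMM, while with library totals it had 1.06 (adjusted p = 1.49e-07). *Srd5a3*, the reductase that makes dolichol, was lower in cerebellum by -0.75 ± 0.09 (SE, adjusted p = 2.25e-05), at 22.08 ± 1.53 TPM in wild-type cortex and 14.65 ± 1.48 TPM in wild-type cerebellum (SD, n = 4 each). *Dolk*, the kinase that makes dolichol phosphate, had a log2 fold change of 0.01 ± 0.06 (SE, adjusted p = 0.845).

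Among the genes of the dolichol-phosphate sugar donors, 3 of 5 were higher in cerebellum in wild-type mice and none was lower, where 34.7% and 33.1% of all genes were. *Dpm1*, the catalytic subunit of dolichol-phosphate mannose synthase, was at 11.2, 13.3, 12.6 and 12.0 TPM in wild-type cortex and at 19.6, 18.3, 19.4 and 18.8 TPM in wild-type cerebellum. In A391T mice the levels were 12.7, 14.0, 13.6 and 11.2 TPM and 18.5, 18.9, 18.2 and 18.4 TPM. The regions did not overlap, and the log2 fold change was 0.48 ± 0.07 (SE, adjusted p = 0.000146) in wild-type and 0.43 ± 0.09 (SE, adjusted p = 0.0018) in A391T mice. In the annotation used for overlaps, 37% of the exon bases of *Dpm1* are shared on the same strand and 1.38% on the other strand. The genes that share them are *Adnp* and *Mocs3*. The exons of *Dpm1* cover 11882 bases there, against 3646 bases in the deposited gene length. How far its counts are affected is therefore not known.

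*Dpm3*, the subunit that holds the synthase at the membrane, was at 52.2, 47.2, 53.4 and 67.3 TPM in wild-type cortex and at 75.0, 90.2, 70.6 and 73.4 TPM in wild-type cerebellum. In A391T mice it was at 49.4, 53.9, 49.7 and 63.8 TPM in cortex and at 207.6, 88.3, 81.2 and 83.3 TPM in cerebellum. All cerebellum libraries lay above all cortex libraries, and CBLM445 lay far above the other 7. The log2 fold change was 0.34 ± 0.13 (SE, adjusted p = 0.0322) in wild-type mice, where 0.35 with the mouse as a block had an adjusted p of 0.0573 and 0.244 under the names of the RPKM table an adjusted p of 0.0879, and 1.01 ± 0.33 (SE, adjusted p = 0.0208) in A391T mice. Without CBLM445 the latter was 0.50, with an adjusted p of 0.000574, so the 2-fold change rested on that library. *Mpdu1*, needed for the use of both donors, was higher at 0.27 ± 0.06 (SE, adjusted p = 0.00237), while *Dpm2* at -0.03 ± 0.06 (SE, adjusted p = 0.727) and *Alg5*, the dolichol-phosphate glucose synthase, at 0.13 ± 0.08 (SE, adjusted p = 0.156) did not pass.

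On the cytosolic face, 4 of 6 genes were higher in cerebellum in wild-type mice, as were 34.7% of all genes. *Alg14*, which anchors the transferase of the second N-acetylglucosamine to the membrane, was at 30.1, 30.1, 34.4 and 28.7 TPM in wild-type cortex and at 55.8, 57.3, 48.9 and 56.9 TPM in wild-type cerebellum. The A391T libraries were at 28.2, 29.4, 29.4 and 29.0 TPM and at 50.5, 56.3, 52.3 and 58.8 TPM. The regions were far apart in both genotypes, with log2 fold changes of 0.68 ± 0.09 (SE, adjusted p = 6.66e-05) and 0.81 ± 0.08 (SE, adjusted p = 1.03e-05). *Alg13*, the catalytic partner of *Alg14*, rose with it by 0.39 ± 0.11 (SE, adjusted p = 0.00884) at a much lower level, 4.35 ± 0.479 TPM in wild-type cortex and 6.31 ± 0.473 TPM in wild-type cerebellum (SD, n = 4 each). *Dpagt1*, which starts the assembly, was higher by 0.32 ± 0.07 (SE, adjusted p = 0.00183) and the mannosyltransferase *Alg11* by 0.15 ± 0.06 (SE, adjusted p = 0.0424). With the mouse as a block *Alg11* had an adjusted p of 0.0676 in wild-type mice and 0.0806 over all 16 libraries. The mannosyltransferases *Alg1*, at 0.14 ± 0.07 (SE, adjusted p = 0.0911), and *Alg2*, at -0.11 ± 0.06 (SE, adjusted p = 0.132), did not pass in wild-type mice. Of the exon bases of *Alg1*, 17.6% lie under *Fam86* on the other strand, which counting without strand does not separate. Over all 16 libraries each of the 6 genes was called, against 74.3% of all genes, 5 higher in cerebellum and *Alg2* lower. *Alg11* was among them in 6 of 26 alternatives and in 2 of the 16 fits that left out a library, those without CTX479 or CBLM445. *Alg2* had -0.026 with library totals (adjusted p = 0.594) and turned positive with them in wild-type mice alone.

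In the lumen 2 of 6 genes were called in wild-type mice and none of 6 in A391T mice, against 67.8% and 62.8% of all genes. Without CBLM445 *Alg3* was called in A391T mice as well, at 0.303 (adjusted p = 0.00248). *Alg6*, the glucosyltransferase that adds the first glucose, was at 4.3, 4.4, 3.9 and 4.0 TPM in wild-type cortex and at 6.0, 5.5, 6.1 and 6.1 TPM in wild-type cerebellum. The A391T libraries had 4.7, 5.3, 5.5 and 4.0 TPM and 5.4, 6.0, 5.9 and 5.7 TPM, where the regions overlapped. The log2 fold change was 0.35 ± 0.08 (SE, adjusted p = 0.00235) in wild-type mice and 0.13 ± 0.10 (SE, adjusted p = 0.267) in A391T mice, and the difference between genotypes, -0.20 ± 0.13 (SE), had an adjusted p of 0.769 in the interaction test. The mannosyltransferase *Alg3* was higher by 0.23 ± 0.09 (SE, adjusted p = 0.0359) in wild-type mice, with an adjusted p of 0.0614 with the mouse as a block and 0.0606 under the names of the RPKM table. *Alg9*, *Alg12*, *Alg8* and *Alg10b* had log2 fold changes from -0.26 to 0.14 with adjusted p-values of 0.115 to 0.43 in wild-type mice. Over all 16 libraries *Alg9* was called lower in cerebellum, at -0.128 (adjusted p = 0.027), and in 20 of 26 alternatives. That call was lost with the mouse as a block (adjusted p = 0.0518) and with library totals (adjusted p = 0.875).

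Of the 4 trimming genes *Ganab*, the catalytic subunit of glucosidase II, was the one called in each genotype, against 67.8% and 62.8% of all genes. It was at 116.2, 122.8, 126.6 and 105.8 TPM in wild-type cortex and at 147.9, 156.2, 162.2 and 157.6 TPM in wild-type cerebellum, and in A391T mice at 119.3, 109.7, 117.6 and 116.1 TPM and at 132.1, 151.4, 147.2 and 147.6 TPM. The regions did not overlap, and the log2 fold changes were 0.25 ± 0.06 (SE, adjusted p = 0.00304) and 0.22 ± 0.05 (SE, adjusted p = 0.00549). Its partner subunit *Prkcsh*, glucosidase I (*Mogs*) and the ER mannosidase *Man1b1* lay between -0.03 and -0.01 in wild-type mice, with adjusted p-values of 0.662 to 0.899. *Prkcsh* depended on the libraries used, since it was called at -0.164 in A391T mice without CBLM445 (adjusted p = 0.0118) and at -0.159 in wild-type mice under the names of the RPKM table (adjusted p = 0.0413).

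The folding sensor and the lectin chaperones had no call between regions in wild-type mice in the reported fit, where 67.8% of all genes were called. *Uggt1*, the sensor that puts glucose back on misfolded glycoproteins, was at 22.8, 26.7, 29.3 and 20.2 TPM in wild-type cortex and at 25.6, 25.2, 31.1 and 29.9 TPM in wild-type cerebellum. For A391T the values were 23.4, 23.7, 23.9 and 22.3 TPM and 23.2, 25.7, 26.2 and 28.6 TPM, and the regions overlapped in both genotypes. Its paralogue *Uggt2* was at 6.5, 8.7, 7.2 and 6.7 TPM in wild-type cortex and at 9.0, 8.6, 10.0 and 10.0 TPM in wild-type cerebellum, with 8.1, 7.6, 8.6 and 6.8 TPM and 7.6, 8.7, 9.0 and 8.7 TPM in A391T mice. The log2 fold changes in wild-type mice were 0.03 ± 0.11 (SE, adjusted p = 0.835) for *Uggt1* and 0.21 ± 0.09 (SE, adjusted p = 0.0533) for *Uggt2*. *Uggt2* was called in 8 of 19 alternatives, with adjusted p-values of 0.00396 to 0.154 over them, and reached 0.338 with library totals and 0.353 with only the mice whose names match. *Uggt1* was 3.41 ± 0.487 times *Uggt2* per length in wild-type cortex and 2.97 ± 0.112 times in wild-type cerebellum (SD, n = 4 each), an exact permutation p of 0.11 for the log2 ratio and 0.15 after adjustment.

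*Calr* was at 540.6, 508.8, 671.6 and 720.1 TPM in wild-type cortex and at 552.3, 519.9, 657.3 and 584.0 TPM in wild-type cerebellum. A391T libraries were at 514.6, 486.3, 501.7 and 528.7 TPM in cortex and at 451.7, 490.2, 512.7 and 496.4 TPM in cerebellum. The wild-type mice of CTX479 and CTX480 held the highest values in both regions, and the groups of the regions overlapped. *Canx* was at 355.9, 351.1, 366.3 and 378.8 TPM in wild-type cortex and at 355.4, 333.1, 409.0 and 391.4 TPM in wild-type cerebellum, with 364.3, 335.6, 363.1 and 352.0 TPM and 396.4, 344.1, 371.8 and 357.7 TPM in A391T mice, again with overlap. Between regions of wild-type mice the log2 fold changes were -0.23 ± 0.11 (SE, adjusted p = 0.0881) for *Calr* and -0.12 ± 0.07 (SE, adjusted p = 0.136) for *Canx*, and with the mouse as a block *Calr* had an adjusted p of 0.0443. *Calr* was called in 5 of 19 alternatives, among them those without CTX448 or CBLM479, and lay between -0.314 and -0.138 with single libraries left out, the latter without CTX480. With library totals it was -0.115. *Canx* lay between -0.176 and -0.0642 with single libraries left out and was called in 1 of 19 alternatives, without CBLM479 (adjusted p = 0.0484). *Calr* was called in A391T mice at -0.16 ± 0.06 (SE, adjusted p = 0.0286), a call lost with the mouse as a block (adjusted p = 0.0795) and with library totals (adjusted p = 0.665). Over all 16 libraries *Calr* was called at -0.187 (adjusted p = 0.0151), with the block too (adjusted p = 0.00796), and in 24 of 26 alternatives. The call was lost with library totals (-0.0727, adjusted p = 0.364). With only CBLM462 and CBLM479, the cerebellum libraries low in choroid plexus markers, it was lost too (-0.118, adjusted p = 0.379). The ratio of *Calr* to *Canx* had an exact permutation p of 0.4 between regions of wild-type mice, also after adjustment.

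Calreticulin and calnexin are also known targets of the ER stress response, and the ER stress response element is a promoter sequence of that response. It was searched as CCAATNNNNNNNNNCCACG on both strands from 250 bases before to 50 bases after each RefSeq gene start of GRCm38.p6. It occurred in 39 of 32851 windows, 0.119%. Of the 37 genes, 33 had a window, and 3 of these held the element, namely *Calr*, *Canx* and *Alg12*. Of 13 ER stress genes with a window, 5 held it, namely *Hspa5*, *Hsp90b1*, *Pdia6*, *Dnajc3* and *Creld2*. The stretches around the element are shown to place these genes beside *Hspa5*, 5′ to 3′ on the strand of each gene, with the element in capitals, for *Calr* in its reverse complement, with chromosome positions of *Calr* at chr8:84847055-84847113 on the minus strand, *Canx* at chr11:50325780-50325838 on the minus strand, *Alg12* at chr15:88819500-88819558 on the minus strand and *Hspa5* at chr2:34772005-34772063 on the plus strand.
Calr: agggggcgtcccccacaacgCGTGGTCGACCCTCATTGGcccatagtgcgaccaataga
Canx: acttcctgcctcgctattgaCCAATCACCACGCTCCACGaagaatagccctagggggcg
Alg12: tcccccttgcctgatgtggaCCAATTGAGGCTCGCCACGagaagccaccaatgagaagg
Hspa5: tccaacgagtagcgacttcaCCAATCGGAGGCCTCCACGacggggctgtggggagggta

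The *Alg12* element is the same stretch of chromosome 15 that *Creld2*, read from the opposite strand, has in its own window. These matches describe the letters of the windows and were not tested for binding. *Alg12*, a mannosyltransferase of the lumen, did not pass between regions under TMM scaling, at 12.42 ± 0.577 TPM in wild-type cortex and 15.25 ± 1.84 TPM in wild-type cerebellum (SD, n = 4 each, log2 fold change 0.14 ± 0.09, SE, adjusted p = 0.19), although the TPM values of these groups did not overlap. Under the names of the RPKM table *Alg12* was called, at 0.261 (adjusted p = 0.0468). In wild-type cerebellum its highest values, 16.9 and 16.8 TPM, were those of CBLM479 and CBLM480, the mice with the highest *Calr*, whereas in wild-type cortex CTX480 had the lowest, 11.8 TPM.

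Between genotypes none of the 37 genes passed an adjusted p-value of 0.05 in cortex, against 0.0126% of the 15815 genes tested, and none in cerebellum, against 0% of 15668. At an unadjusted p-value under 0.05 there was 1 of 37 in each region, *Calr* both times, against 4.73% of all genes in cortex and 8.55% in cerebellum, and DESeq2 and edgeR's exact test also gave 0 at the adjusted threshold. In cortex the log2 fold changes of A391T over wild-type lay between -0.29 and 0.21, and their median was -0.02, against 0.00 over all genes tested. In cerebellum they lay between -0.26 and 0.66 around a median of 0.01, the highest being *Dpm3* (0.66 ± 0.33, SE, adjusted p = 0.532), which holds the high value of CBLM445. The absolute medians were 0.06 and 0.07 for the 37 genes and 0.07 and 0.13 for all genes tested. *Tusc3* had 0.05 ± 0.07 (SE, adjusted p = 0.9997) in cortex and 0.14 ± 0.07 (SE, adjusted p = 0.532) in cerebellum.

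*Calr* was lower in A391T mice by -0.29 ± 0.11 in cortex (SE, unadjusted p = 0.0199, adjusted p = 0.9997, edgeR) and by -0.19 ± 0.07 in cerebellum (SE, unadjusted p = 0.0205, adjusted p = 0.532, edgeR), neither of which passed. The cortex value was -0.182 without CTX480. In cortex CTX448 lay within the range of the A391T libraries and CTX447 just above it, with CTX479 and CTX480 far above, and in cerebellum all 4 wild-type libraries lay above all 4 A391T libraries. Under the names of the RPKM table, which leave the mice of CTX479 and CTX480 in the wild-type group, the log2 fold changes were -0.25 and -0.10, and with only the mice whose names match they were -0.505 and -0.28. All 15 ER stress genes had a log2 fold change below 0 in cortex, with a median of -0.19 against 0.00 over all genes, and 0 of the 15 passed. All 15 stayed below 0 without CTX480 (median -0.149) and without CTX479 (median -0.141). The same held without both CTX480 and the A391T library CTX461 (median -0.162). With the other set of names 13 of 15 were below 0, with a median of -0.09, and 0 of the 15 passed in cerebellum either, where 5 of 15 were below 0 with a median of 0.031. Without CBLM445 the cerebellum count was 11 of 15 with a median of -0.0516, so its direction rested on that library. *Hspa5*, the main ER chaperone, was at 354.6, 306.8, 403.8 and 403.6 TPM in wild-type cortex and at 315.6, 297.4, 332.5 and 324.3 TPM in A391T cortex. *Hsp90b1* was at 254.7, 251.2, 294.8 and 318.9 TPM and at 252.6, 226.7, 250.3 and 237.8 TPM. In both genes the highest cortex values were those of CTX479 and CTX480, as for *Calr*. CTX480 also had the lowest summed TPM of cortex neuron markers, 2275 against 2700 to 2848 in the other 7 cortex libraries, a sum carried by *Slc17a7* (1938 TPM against 2361 to 2507), while *Neurod6*, at 146 TPM, was second highest and *Tbr1*, at 125.1 TPM, was mid-range. It had the highest summed TPM of 3 endothelium markers, 234.9, and of 3 blood markers, 313.1. The part of these cells in the *Calr* and ER stress values was not tested.

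**Figure D4:**
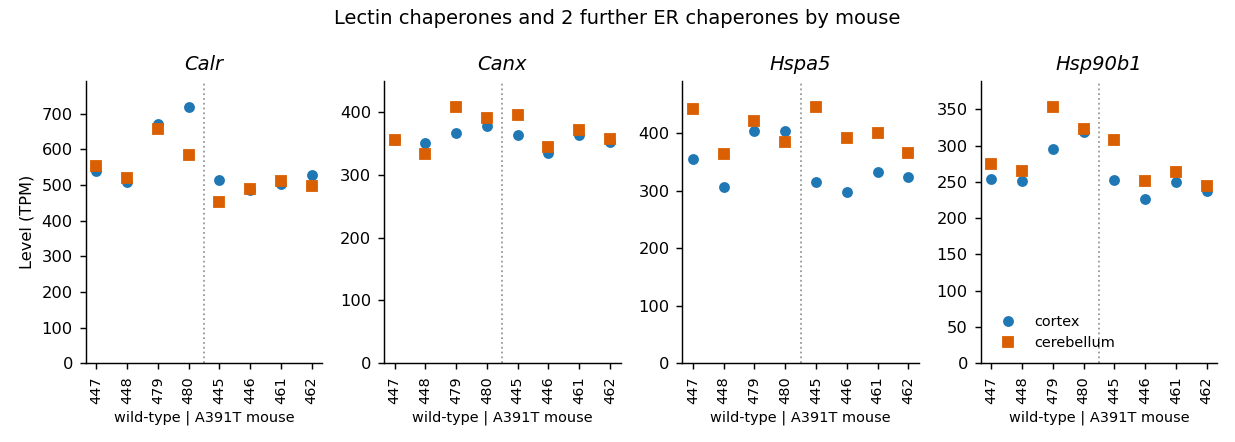
Level in TPM (y axis, from 0) of the lectin chaperone genes *Calr* and *Canx* and of the ER chaperone genes *Hspa5* and *Hsp90b1* in cortex (circles) and cerebellum (squares) of each mouse (x axis, mouse numbers as in the titles of the count files, wild-type left and A391T right of the dotted line). *Calr* reaches 671.6 and 720.1 in the wild-type libraries CTX479 and CTX480 and is 540.6 or less in cortex of the other 6 mice.

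The interaction of region and genotype had no call among the 37 genes, against 0% of the 16589 genes tested, and no gene of the 37 had an unadjusted p-value under 0.05. DESeq2 gave 0 as well. The lowest adjusted p-value was 0.769 and the highest log2 interaction was that of *Dpm3*, 0.69 ± 0.38 (SE).

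The library CBLM445 differed from the other 7 cerebellum libraries in many of these genes. Besides *Dpm3* it had the lowest *Alg3*, at 16.1 TPM against 26.9 to 31.7, the lowest *Dpm2*, at 47.5 TPM against 74.7 to 85.7, and the lowest *Dpagt1*, at 28.7 TPM against 38.4 to 42.9. It had the highest *Dolk*, at 60.8 TPM against 45.3 to 48.7. Its summed TPM of 7 cerebellum neuron markers, 3248, was in the cerebellum range of 3222 to 3588. *Neurod1*, a granule cell gene, was at 186.7 TPM against 269.8 to 317 in the other cerebellum libraries. Values of further granule cell genes are not given here, and whether granule cells were fewer in CBLM445 was not tested. CBLM445 was also lowest in the summed TPM of astrocyte and Bergmann glia markers, at 1260, and of microglia markers, at 107.3. Among endothelium markers it was highest in *Cldn5*, at 213.8 TPM, and lowest in *Pecam1* and *Flt1*, and among blood markers highest in *Hbb-b1*, at 324.2 TPM, and lowest in *Hba-a1*, at 32.18 TPM. Their part in its values was not tested.

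**Figure D5:**
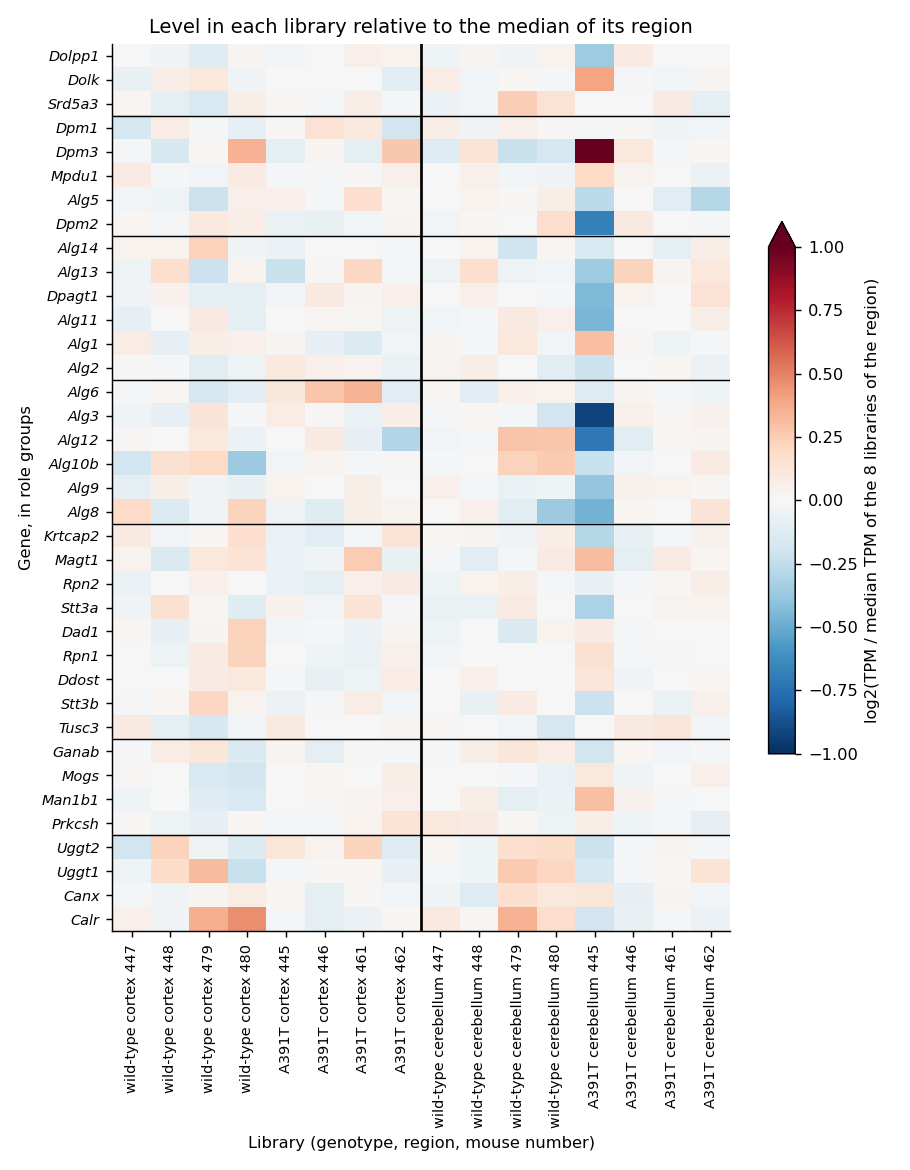
Log2 of the TPM in each library over the median TPM of the 8 libraries of its region (colour, from -1 in blue to 1 in red) for the 37 genes in role groups (rows) and the 16 libraries (columns, cortex left and cerebellum right of the line). The column of CBLM445 holds the strongest colours, red in *Dpm3* and blue in *Alg3*, and the columns of CTX479 and CTX480 are red in *Calr*.

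Of 22 other genes of the pathway, listed with the 37 but not among them, 14 were called in wild-type mice, 8 higher and 6 lower in cerebellum, and 1 with a 2-fold change, where 67.8% and 24.7% of all genes were. That gene was *Gmppa*, a regulator of the supply of GDP-mannose, at 45.6, 48.6, 39.9 and 41.7 TPM in wild-type cortex and 114.3, 112.4, 103.3 and 122.1 TPM in wild-type cerebellum. Its log2 fold change was 1.21 ± 0.08 (SE, adjusted p = 1.48e-07) in wild-type mice and 0.97 ± 0.12 (SE, adjusted p = 7.32e-05) in A391T mice. *Nus1*, a subunit of the enzyme that makes the carbon chain of dolichol, was lower at -0.62 ± 0.06 (SE, adjusted p = 2.48e-06), as was *Srd5a3*, which acts after it. *Edem1*, a lectin of ER-associated degradation, was lower at -0.53 ± 0.07 (SE, adjusted p = 4.13e-05), while its relatives *Edem2* and *Edem3* were higher at 0.40 ± 0.07 (SE, adjusted p = 0.000391) and 0.47 ± 0.10 (SE, adjusted p = 0.00113).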

How the data were processed

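RNA of cortex and cerebellum of 4 wild-type and 4 A391T mice was measured as polyA-selected 50 bp libraries. The deposited counts are whole reads per Ensembl gene, which the authors made with STAR on mm9 and HTSeq without regard to strand. From 21.4% to 27.1% of the entries of a count file lay on no single gene and stayed out of totals and tests. The authors also deposited RPKM values with a gene length per gene, used here for gene lengths and library names, and 8 of its 16 columns carry another mouse number than the count file with the same values. TPM was computed from the counts and these lengths.

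Counts were tested with edgeR 4.0.16 (limma 3.58.1, R 4.3.3) on genes that passed filterByExpr, with TMM factors. The Benjamini-Hochberg method ran over every gene in a fit, and calls were made where it gave under 0.05. A 2-fold change was counted in addition. SE is the log2 fold change over the square root of F. All 37 genes passed the filter in every comparison. Simulated counts were used to check the scripts. Ratios were tested with exact permutation tests in Python 3.11.15 with scipy 1.17.1. Values per library are given for genes past both criteria in either genotype, for the gene with the largest change in each role group, for the 8 paralogues of the ratio tests, and, chosen after their values were seen, for *Hspa5*, *Hsp90b1* and *Gmppa*. The members, the lists and the tests were chosen with earlier results of these data known. Alternatives were DESeq2 1.42.0, edgeR's exact test, RLE size factors, library totals, other filters (1 count in any library, or 1 CPM in 4), one model of all 16 libraries, a test against a 2-fold change, the names of the RPKM table, only mice with matching names, the mouse as a block and each library left out, and 3 sets of libraries chosen after seeing the data.

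The study's methods state that the regions came from the same animals, which pairs them by mouse. The deviations of the regions of one mouse from their group means had correlations from -0.189 to 0.203 across genes. The study describes its mice as littermates. Chi-square per degree of freedom between libraries of a group was 2.93 to 69, more than the counting error of a re-sequenced library gives. This does not show that the libraries came from different mice. The floor of 3 counts covers counting error only, while SE and SD hold the spread between libraries. Positions and exon overlaps are those of GENCODE M1 on NCBIM37. RefSeq promoter windows are those of GRCm38.p6. *Tmem258* and the marker *Lamp5* did not match a name in the files.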

Additional observations from a re-analysis of the deposited data

Results flagged for a closer look

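In 148 groups of 4 libraries (37 genes in 4 groups), 15 values lay far from the other 3 of their group, where chance alone flags about 5% of groups. Of these, 9 belonged to the A391T library CBLM445. Against the other 3 A391T cerebellum libraries it was high in *Dpm3* (207.6 TPM, others 81.2 to 88.3), *Dolk* (60.78 TPM, others 45.3 to 47.1), *Alg1* (51.27 TPM, others 40.1 to 41.9), *Man1b1* (87.64 TPM, others 70.5 to 73.0) and *Rpn1* (176.8 TPM, others 158 to 161). It was low in *Alg3* (16.12 TPM, others 30.8 to 31.7), *Alg11* (31.18 TPM, others 42.6 to 44.6), *Alg9* (14.2 TPM, others 18.7 to 19.1) and *Stt3a* (18.85 TPM, others 23.6 to 24.0).

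The remaining 6 were spread over 5 libraries and are listed without a claim beyond what chance flags. *Magt1* was high in CTX461 (14.57 TPM, others 11.6 to 12.0), the cortex library lowest in striatal markers. Whether these are linked was not tested. *Dolk* was low in CTX462 (37.96 TPM, others 41.1 to 41.3). *Alg1* was low in the wild-type library CTX448 (32.13 TPM, others 35.3 to 35.9). *Alg13* and *Ddost* were high in the wild-type library CBLM448 (7.02 TPM, others 6.04 to 6.14, and 153 TPM, others 147 to 147). *Rpn1* was low in the wild-type library CBLM447 (156 TPM, others 159 to 159).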

How the results depend on the processing

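With only the mice whose names match, 2 per genotype, 10 genes were called in wild-type mice, 8 in A391T mice and 15 over the 8 libraries of both, while the share of all genes called fell to 47.5%, 40.8% and 56.4%. Leaving out 1 library at a time gave 15 to 19, 12 to 24 and 22 to 27 calls in wild-type mice, A391T mice and both. The count with a 2-fold change was 2 in wild-type mice and 2 over all libraries with library totals. In A391T mice it was 3 with library totals (*Tusc3*, *Dpm3* and *Dolpp1*), 1 in a test against a 2-fold change, 1 with the replicate block, 1 with the block and the names of the RPKM table, and 1 to 2 with each library left out, being 1 without CTX445, CTX446, CTX461 or CBLM445. The replicate block gave 17, 16 and 21 called genes in wild-type mice, A391T mice and all libraries, and changed no other count of calls by over 1.5 times. The genotype and interaction counts were 0 under every alternative run. The *Tusc3* to *Magt1* and *Stt3a* to *Stt3b* differences passed over all 16 libraries (-2.31 and 0.32, adjusted p = 0.00031) and with the replicate block over the 8 mice (-2.31 and 0.32, adjusted exact sign-flip p = 0.016). The *Uggt1* to *Uggt2* difference turned to 0.0094 in A391T mice (adjusted p = 0.91). Of single genes in wild-type mice, *Canx* turned to 0.0015 with library totals, as 6 others turned sign (*Alg2*, *Dpm2*, *Prkcsh*, *Mogs*, *Man1b1* and *Alg9*), *Alg5* turned to -0.0327 under the names of the RPKM table, and *Uggt1* ran from -0.058 to 0.10 with each library left out. None of these was called in the reported fit. The cause of these moves was not tested. Limits are the 4 mice per genotype, the unsettled names of 4 of them, bulk tissue without cell types, 50 bp reads that can be shared by like genes, and TPM that depends on 1 length per gene.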
